A study of Macaca fascicularis with 132 samples.

Results

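Blood mononuclear cells from 4 cynomolgus macaques (Macaca fascicularis) were compared after 12 h of culture with or without heterodimeric IL-15, in which the cytokine is paired with the alpha chain of its receptor. The comparison rests on 24 RNA-seq libraries, 12 from cultures with IL-15 at 40 ng/ml and 12 from control cultures at 0 ng/ml, which are 2 of the 11 groups of 12 libraries in the series. They were taken by their labels alone, with 3 numbered libraries for each animal and condition. Animals 38142 and 38155 are labelled female and animals 38147 and 38157 male; the sources used here give no age. The design text speaks of 6 animals, of which these 4 are analysed here. The cells were treated outside the body as a mixture. A higher or lower value in bulk RNA cannot tell more or fewer cells of a type from more or less RNA per cell.

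IL-15 is a cytokine that supports the survival, division and killing function of natural killer cells and CD8+ T cells. Cells that carry the IL-15 receptor alpha chain present the cytokine to neighbours whose beta and common gamma chains signal through JAK1, JAK3 and STAT5. The heterodimer supplies the cytokine already bound to that alpha chain. Mononuclear blood cells also hold B cells, monocytes and dendritic cells. The deposited tables list Ensembl gene IDs without symbols, and 0 of the IDs had a symbol in the reference table, so neither genes of this pathway nor markers of these cell types could be looked up. The data are therefore given by size, level, animal and time of the change, with 4 gene IDs in full, and the labelled cell type was not checked against markers.

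Library totals at 12 h ranged from 17368210 to 87944372 counts (median 23563207) in control cultures and from 19461967 to 45096967 (median 29780989) with IL-15. Between 17909 and 20113 genes had a count in control libraries, and between 17774 and 19551 with IL-15. The library of 87944372 counts is control library 3 of animal 38155. In control libraries 8.2% to 9.97% of all counts fell on the 20 genes with the most counts, and with IL-15 10.1% to 11.3%, so these ranges do not overlap. None of the 24 libraries stood apart from its sister libraries of the same animal and condition. Nothing in the labels says whether these sisters are separate cultures, so they were summed and the animal was the replicate.

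At 12 h, 3177 genes were higher with IL-15, 17.5% of the 18197 tested, and 2550 were lower, 14% (edgeR quasi-likelihood test with a term for the animal, Benjamini-Hochberg adjusted p under 0.05, n = 4 animals). Their median log2 fold changes were 0.54 and -0.60. The edgeR fit takes its spread from all 44 sums of 11 groups. The SEs and p-values therefore do not measure the spread of the 12 h effect over the 4 animals alone. The test itself gives no SE. Each SE here is the absolute log2 fold change over the square root of its F statistic, and is approximate. With only the groups compared in the fit, 3084 genes were higher and 2962 lower. A change of at least 1 on the log2 scale was found for 737 genes higher (4.05% of those tested) and 580 lower (3.19%). With 1 animal left out, these counts moved most for 38155: without it, 1978 genes were higher and 1475 lower, 362 of the latter by at least 1. The counts higher and lower were 2154 and 1777 without 38142, 2466 and 2137 without 38157, and 2768 and 2567 without 38147. A fit with fewer animals also has less power.

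Which direction prevailed depended on the scaling between libraries. Of the genes called, 55.5% were higher with TMM, 51.6% with RLE size factors, 37.9% with upper-quartile scaling and 25.6% with total counts alone, when 1753 genes were higher and 5096 lower. The median log2 change of all genes tested moved from -0.041 with TMM to -0.141 and -0.227 in the last 2 of these. The share higher was also 45.3% with a filter at a mean of 5 CPM (counts scaled to a common library size by TMM), 44.7% with libraries entered singly and 70.3% with the animal term left out. Fold changes below are relative to TMM, and the balance of directions is not a result of this comparison.

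**Figure D1:**
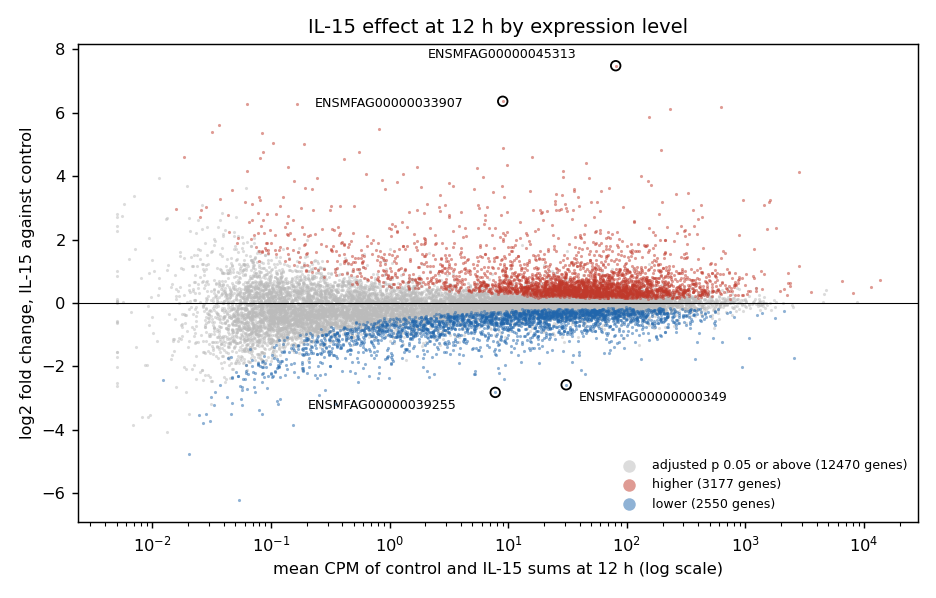
Log2 fold change of IL-15 against control at 12 h (vertical axis) against the mean CPM of both groups (horizontal axis, log scale) for 18197 genes, with 3177 genes higher in red, 2550 lower in blue and the rest in grey. Most called genes lie near 0, and the 4 circled genes are those given in full in the text.

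Most changes were small. Of the genes higher, 45.4% changed by under 0.5 on the log2 scale and another 31.4% by 0.5 to 1. The change reached 3 for 92 genes higher and 18 lower. The 92 genes had a median level of 0.59 CPM in control cultures and 10.2 CPM with IL-15. The 18 genes went from a median of 0.1 CPM in control cultures to 0.01 CPM. The largest falls were therefore among genes with little RNA in either group.

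The share of genes called higher, by any size of change, grew with expression level. It was 3.71% of genes under 1 CPM, 11.7% at 1 to 10 CPM, 27.3% at 10 to 100 CPM, 33.9% at 100 to 1000 CPM and 37.3% of the 83 genes at 1000 CPM or more. The order of these 5 shares was the same with RLE, upper-quartile and total-count scaling. The precision differs between the classes: the median SE of the log2 fold change, obtained as above, was 0.49 under 1 CPM and 0.10 at 100 to 1000 CPM. The share lower was greatest at 1 to 10 CPM (20.4%) and least at 1000 CPM or more (7.23%) with TMM. With total counts alone, more genes were lower than higher in every class, 34.9% against 24.4% of the 86 genes at 1000 CPM or more.

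Genes called higher took 29.2% ± 0.95 of all counts in control cultures (SD, n = 4 animals) and 41.3% ± 2.87 with IL-15. In single animals the share went from 30.2% to 42.3% (38142), 29.1% to 37.7% (38147), 27.9% to 44.5% (38155) and 29.4% to 40.6% (38157). The gain was widest in 38155 and narrowest in 38147. Genes called lower went from 14.4% ± 0.67 to 8.86% ± 0.72. These shares follow from the calls and are a description of their weight in the libraries. The 10 genes with the largest gain in CPM held 20% of the CPM gained by the 3177 genes higher, and the 100 largest held 47.6%.

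Among the 10 genes with the largest change in CPM, 9 were higher and 1 lower. The most abundant of them stood at 10380 ± 1356 CPM in control cultures (SD, n = 4 animals) and 17000 ± 1446 CPM with IL-15, with a log2 difference of 0.72 ± 0.09 (SE; adjusted p from edgeR 1.8e-07). A gene at 338.6 ± 221.5 CPM in controls reached 5300 ± 2063 CPM, 17.4-fold higher. Of the others, 4 went from between 296 and 565 CPM to between 2566 and 3060 CPM. The gene that was lower went from 3985 ± 5133 to 1149 ± 1178 CPM, and its sums overlapped between conditions (edgeR adjusted p = 0.044). For 7 of the 10 genes the 4 sums of either condition did not overlap, against 16.4% of all genes tested. These 10 genes were chosen after their values were seen, and their IDs are not given.

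The IDs given were chosen by size: the 2 highest and 2 lowest log2 fold changes among genes with an adjusted p under 0.05, at least 5 CPM in the higher group and the same direction in 4 of 4 animals. These conditions were met by 2711 genes higher and 1580 lower. The values below are thus extremes by choice. Their SEs and adjusted p-values come from the fit of all 44 sums. With only the groups compared in the fit, the adjusted p-values from edgeR were 0.00067, 7.9e-06, 0.0071 and 0.00041, in the order below.

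ENSMFAG00000045313 had the largest rise. It lay between 0 and 4.47 CPM (median 0.68) in the 12 control libraries and between 33.9 and 351 CPM (median 125.9) in the 12 with IL-15, so the 2 conditions did not overlap. By animal, control sums held 1.11 CPM (38142), 0.142 (38147), 4.01 (38155) and 0.0732 (38157), and sums with IL-15 held 144.9, 56.4, 345.8 and 92.3 CPM in the same order. Animal 38155 was highest in both conditions. The log2 fold change was 7.49 ± 0.74 (SE; edgeR adjusted p = 4.9e-09), a 180-fold difference that rests on 663 counts over the 4 control sums. In single animals it ranged from 6.42 (38155) to 9.89 (38157). The widest fold was thus found where the control level was lowest, at 0.0732 CPM. With the animal term left out the log2 fold change was 6.87 (edgeR adjusted p = 0.00043).

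ENSMFAG00000033907 was the second. Control libraries held 0.0481 to 1.02 CPM (median 0.136) and those with IL-15 4.91 to 40.8 CPM (median 10.4), again without overlap. The control sums were 0.187, 0.0708, 0.528 and 0.105 CPM in animals 38142, 38147, 38155 and 38157, against 9.53, 6.67, 37.7 and 17.1 CPM with IL-15. As with the first gene, 38155 was highest in both conditions. Its log2 fold change was 6.36 ± 0.68 (SE; edgeR adjusted p = 2e-08). Before culture it stood at 0.312 ± 0.0508 CPM (SD, n = 4 animals), and in control cultures of 12 h at 0.223 ± 0.21 CPM, a difference that did not pass the test (log2 change -0.70 ± 0.82 (SE), edgeR adjusted p = 0.5).

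ENSMFAG00000039255 had the lowest value, on the log2 scale -2.83 ± 0.55 (SE; edgeR adjusted p = 0.00019). Control sums held 13.8, 22.4, 3.66 and 11.6 CPM in 38142, 38147, 38155 and 38157, and sums with IL-15 held 1.26, 8.63, 0.23 and 0.691 CPM. The conditions overlap across animals, because 38147 with IL-15 stood above 38155 without it, while within each animal IL-15 was lower. Over libraries the ranges were 2.45 to 26.7 CPM (median 12.9) and 0.183 to 10.6 CPM (median 0.92). The gene was near 0 before culture, at 0.185 ± 0.0747 CPM (SD, n = 4 animals). Animal 38147 had the smallest fall (log2 fold change -1.38), and without it the value was -3.79 (edgeR adjusted p = 3.8e-05). With the animal term left out the call of this gene was lost (log2 fold change -2.25, edgeR adjusted p = 0.137).

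ENSMFAG00000000349 was the most uniform of the 4. Its control libraries held 43.1 to 63.7 CPM (median 53.9) and those with IL-15 5.32 to 16.6 CPM (median 7.38), without overlap. The control sums were 50.9, 43.9, 56.4 and 58.7 CPM in 38142, 38147, 38155 and 38157, and those with IL-15 7.47, 6.52, 6.88 and 16 CPM. Animal 38157 was highest with IL-15, and its fold was the smallest (log2 fold change -1.87, against -2.75 to -3.03 in the other animals). The log2 fold change was -2.59 ± 0.16 (SE; edgeR adjusted p = 1.2e-14).

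**Figure D2:**
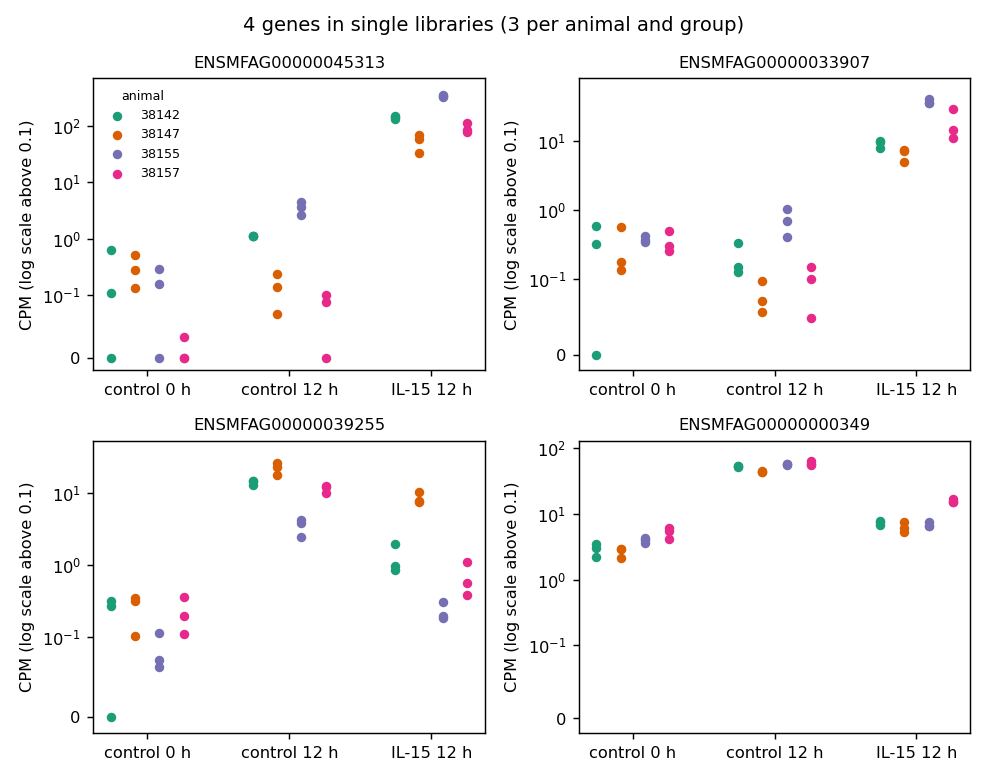
CPM (vertical axis, log scale above 0.1) of the 4 genes in each of the 36 libraries of control at 0 h, control at 12 h and IL-15 at 12 h, coloured by animal. For ENSMFAG00000039255 the orange points of animal 38147 with IL-15, 7.67 to 10.6 CPM, lie above the control points of 38155 at 2.45 to 4.28 CPM.

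The 20 genes with the largest rise and the 20 with the largest fall under the same conditions differed in scale. The rises spanned 3.74 to 7.49 on the log2 scale (median 4.31) and the falls -1.69 to -2.83 (median -2.03). Among the 20 rises, 6 genes had under 1 CPM in control cultures and 9 exceeded 100 CPM with IL-15. All 24 libraries separated by condition for 19 of these 20 genes and for 5 of the 20 falls, where over all genes tested 3.84% lay wholly above and 1.2% wholly below. With IL-15 the highest sum came from 38155 for 16 of the 20 rises, and in controls for 13. The fold itself was greatest in 38155 for 5 of the 20 rises and 14 of the 20 falls.

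Over all genes tested, 698 had all 12 libraries with IL-15 above all 12 controls (3.84%), and 218 had all 12 below (1.2%). Among the genes called, these were 696 higher and 212 lower. The direction was the same in 4 of 4 animals for 3082 of the 3177 genes higher and for 2387 of the 2550 lower, against 50% of all genes tested; the test selects in part for this.

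A few genes were called with almost no RNA in the other condition. Of the genes higher, 17 had at most 3 counts over the 4 control sums, and 4 of these had 0. With IL-15 they held 0.0286 to 0.321 CPM by total counts (median 0.0745), so they are rare transcripts. Of the genes lower, 14 had at most 3 counts over the 4 sums with IL-15, and their control level was 0.0248 to 0.11 CPM by total counts.

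The animals differed in the size of the response. Over the 10101 genes whose mean reached 5 CPM, the root mean square log2 fold change was 0.589 in 38142, 0.508 in 38147, 0.752 in 38155 and 0.572 in 38157. In 38155, 764 of these genes were higher by at least 1 and 386 lower, against 316 and 77 in 38147. Animal 38155 had the greatest of the 4 fold changes for 53.8% of the genes called higher and 57.4% of those lower. Without its deepest control library, that root mean square was 0.753. Opposite signs among the called genes were most frequent in 38147, with 54 of the genes higher and 96 of those lower.

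Animals shared most of the pattern. Across these 10101 genes, which are not independent replicates, the log2 fold changes of 2 animals correlated with r = 0.779 (38147 and 38155) to 0.89 (38142 and 38155). Component 1 of a principal component analysis of the 8 sums carried 40.4% of the variance, and the sum with IL-15 lay higher on it than its own control in each animal, by 43.4 (38147) to 68.9 (38155). When the variation of log2 CPM at 12 h was split into sums of squares, 35.8% fell to IL-15, 58.6% to the animal and 5.57% to the rest. The IL-15 share was 6.48% at 2 h and 43.9% at 48 h. The spread between animals had a median SD of 0.227 on the log2 scale in control cultures and 0.187 with IL-15, and that between sister libraries was 0.119 in either.

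Calls made in 3 animals were then read in the animal left out, which played no part in them. Of the 1978 genes higher and 1475 lower without 38155, 98.8% and 97.4% had the same direction in 38155, where the median log2 fold changes were 0.80 and -0.72 against 0.60 and -0.65 in the 3 animals tested. In 38142 the shares were 98.9% and 95%, and in 38157 98.4% and 97%. In 38147 they were lower, 92.9% of 2768 genes and 89.5% of 2567, with medians of 0.39 and -0.38 against 0.62 and -0.62. Genes not called had the same direction in 64.1% to 72%. Animal 38147 thus had the lowest shares and the medians nearest 0.

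**Figure D3:**
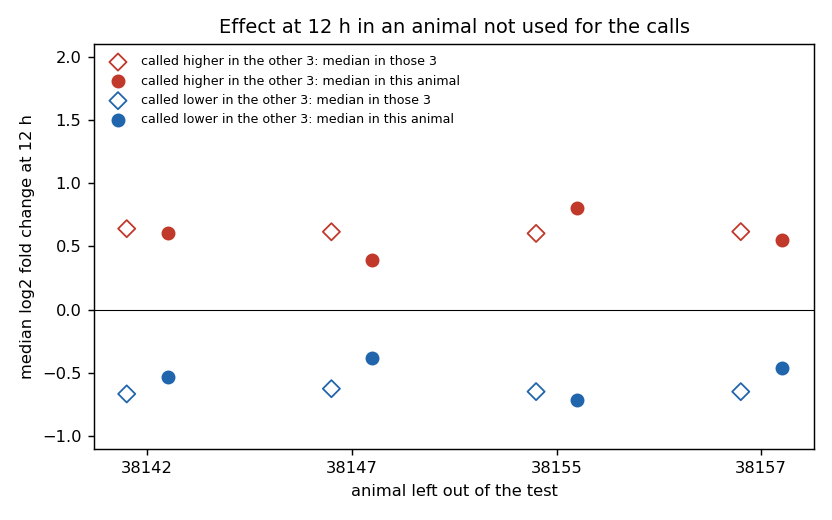
Median log2 fold change at 12 h (vertical axis) of genes called higher (red) or lower (blue) in 3 animals, shown for those 3 (open diamonds) and for the animal left out (filled circles, horizontal axis). The filled circles lie nearest 0 for 38147 (0.39 and -0.38) and farthest for 38155 (0.80 and -0.72).

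The column names carry Lib and GL tokens that the labels do not explain, and these were treated as possible batches. Lib1 GL75 holds 6 libraries with IL-15 and 5 controls at 12 h, and Lib1 GL66 holds 2 and 4. For genes called in the libraries outside a set, the direction was read inside it within the same animals. The libraries outside include sisters from the animals read inside, so the shares below are not independent and cannot exclude a batch effect. In Lib1 GL75 (3 animals) it was the same for 98.9% of 4543 genes, against 74.5% of those not called. In Lib1 GL66 and Lib2 GL75 (1 animal each) the shares were 94.6% and 94.4%, against 65% and 65.9%. Lib1 GL67 has no animal with both conditions at 12 h.

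The effect at 12 h was set against that at the other times, each of which has its own control libraries. It differed from the effect at 2 h for 2660 genes, 14.6% of those tested (adjusted p under 0.05 for the difference itself, edgeR): the log2 fold change lay above that of 2 h for 1646 and below it for 1014. Of the genes higher at 12 h, 1584 (49.9%) had a greater effect than at 2 h, and of those lower, 800 (31.4%) had a deeper fall. The choice of these genes on their 12 h values favours both counts. Without 38142 the test called 988 genes, without 38155 1096, without 38157 1553 and without library 3 of each animal and group 1621; a block for each pair of IL-15 and control sums gave 4033.

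Against 6 h the effect differed for 18 genes (0.0989%), with the log2 fold change of 12 h above that of 6 h for 14 of them. At 6 h 1 of these stood at 32 CPM in control cultures and 75.9 CPM with IL-15, and at 12 h at 33.2 and 360 CPM, a difference of 2.16 ± 0.45 (SE, log2; edgeR adjusted p = 0.036). Another was at 247 CPM in control and 167 CPM with IL-15 at 6 h, and at 187 and 364 CPM at 12 h. Both were chosen after their values were seen. Without 38142 the count was 0 (1093 genes at an unadjusted p under 0.05, edgeR); without 38147 it was 7, without 38157 6 and without library 1 of each animal and group 11, and with pairs as a block 197.

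Against 24 h the effect differed for 0.561% of the genes tested: the log2 fold change of 24 h lay above that of 12 h for 96 genes, 41 of which were already higher at 12 h, and below it for 6. Without 38142 edgeR called 0 (772 at an unadjusted p under 0.05), without 38147 27 above and 3 below, and without 38155 42 above and 1 below. With pairs as a block it called 120 above and 66 below. By 48 h the effect differed for 1897 genes (10.4%). Of the genes higher at 12 h, 408 had a smaller effect at 48 h and 158 a greater. Of those lower at 12 h, the fall was less deep at 48 h for 227 and deeper for 59. These genes were chosen on 12 h values that also enter the difference, which favours a smaller effect at 48 h. Over all genes tested, the value of 48 h lay above that of 12 h for 1050 and below it for 847. Without 38142 the count at 48 h was 762 and without 38155 955, and with pairs as a block 2877.

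The genes called at 12 h were read at the other times by their medians, which cover differing courses. Those higher by at least 1 moved from a median of 0.01 (log2 fold change, 2 h) through 0.76 (6 h) to 1.61 (12 h), followed by 1.44 (24 h) and 1.03 (48 h). Those lower by at least 1 had medians of -0.13, -0.55, -1.39, -1.31 and -1.06. As these genes were chosen on their values at 12 h, the medians at that time are favoured. The list of genes higher at 12 h shared 4.38% of its genes with the list at 2 h, 26% with that at 6 h, 82.8% with that at 24 h and 60.5% with that at 48 h. Those lists hold 1.67%, 5.12%, 20% and 20.2% of all genes tested, and the shared genes are 45.9%, 88.6%, 72.2% and 52.2% of them. For genes lower the shares of the 12 h list were 2.2%, 21.1%, 75.3% and 57.6%, where 0.495%, 3.54%, 19% and 20% of all genes were called lower, and the shared genes are 62.2%, 83.7%, 55.6% and 40.4% of those lists. The same animals gave the cultures of every time. Calls in the opposite direction at 48 h were made for 58 genes higher and 71 lower at 12 h. Of the 18197 genes tested, 373 were called higher and 398 lower at 12 h and at no other time. Their median log2 fold changes at 12 h were 0.42 and -0.54. A missing call at another time is no test of a difference, so these genes are not shown to be particular to 12 h.

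**Figure D4:**
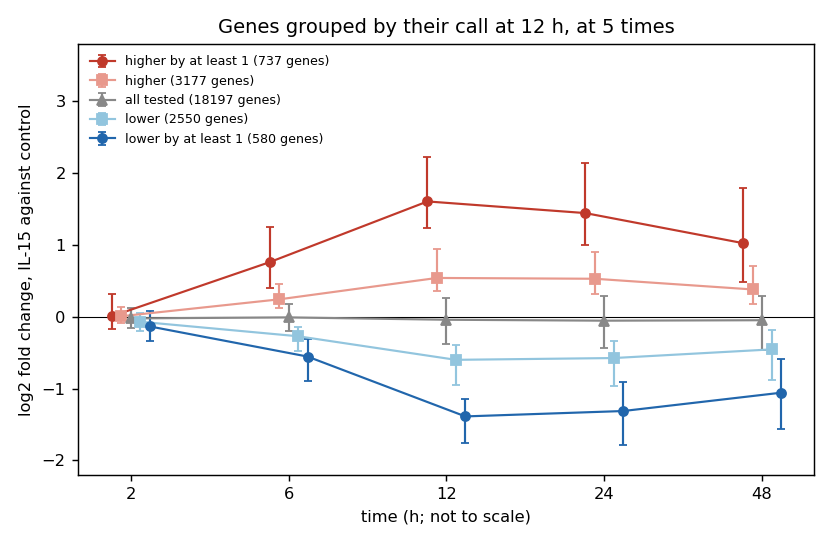
Median log2 fold change of IL-15 against control (vertical axis; bars, lower to upper quartile over genes) at 2, 6, 12, 24 and 48 h for genes grouped by their call at 12 h. The genes higher by at least 1 at 12 h have a median of 0.01 at 2 h and 1.03 at 48 h.

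In some genes the effect at 12 h exceeded both that at 2 h and that at 48 h, by the test of either difference. Of the 18197 tested, these were 282 among the 3177 higher at 12 h and 92 among the 2550 lower. They were not counted again with an animal left out. The calls they need fell to 988 (against 2 h) and 762 (against 48 h) without 38142. The 282 genes had medians of -0.05, 0.46, 0.96, 0.62 and 0.08 at 2, 6, 12, 24 and 48 h, which their choice favours.

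The 4 printed genes took different courses. ENSMFAG00000045313 held with IL-15 0.0776 ± 0.0403, 79.9 ± 82.8, 159.9 ± 129.2, 226 ± 171 and 74 ± 67.4 CPM at 2, 6, 12, 24 and 48 h (SD over 4 animals), while control cultures of 48 h held 9.67 ± 16.2 CPM. Nearly all of that control mean came from 38155, at 33.9 CPM. From 12 to 48 h its log2 fold change moved by -3.73 ± 0.84 (SE, log2; edgeR adjusted p = 0.003). ENSMFAG00000033907 reached its highest mean with IL-15 at 24 h, 64.9 ± 67.2 CPM against 17.8 ± 14 at 12 h, while its control cultures held 1.36 ± 0.921 CPM at 24 h and 0.223 ± 0.21 at 12 h. The difference of its effect between 24 and 12 h was -1.01 ± 0.84 (SE, log2), which did not pass the test (edgeR adjusted p = 0.99).

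Both printed genes that were lower with IL-15 had risen in culture without it. ENSMFAG00000039255 went from 0.185 CPM at 0 h to 12.9 CPM in control cultures at 12 h (log2 change 6.13 ± 0.72 (SE), edgeR adjusted p = 1.3e-08) and to 2.7 CPM with IL-15 (3.31 ± 0.72, adjusted p = 0.00022). ENSMFAG00000000349 went from 3.73 CPM at 0 h to 52.5 CPM in control cultures and to 9.22 CPM with IL-15 (log2 changes 3.85 ± 0.17 and 1.26 ± 0.16 (SE), edgeR adjusted p = 3.4e-19 and 2.2e-08). The control sums of 12 h enter the first change and the IL-15 effect alike, so these values stand side by side and are not independent. Over all 580 genes lower by at least 1, the median log2 change since 0 h was 0.48 in control cultures and -0.90 with IL-15. Over the 737 higher by at least 1 it was -0.33 and 1.36. Over all genes tested these medians were 0.007 and -0.005. Both sets were chosen on their 12 h values, which favours these directions.

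**Figure D5:**
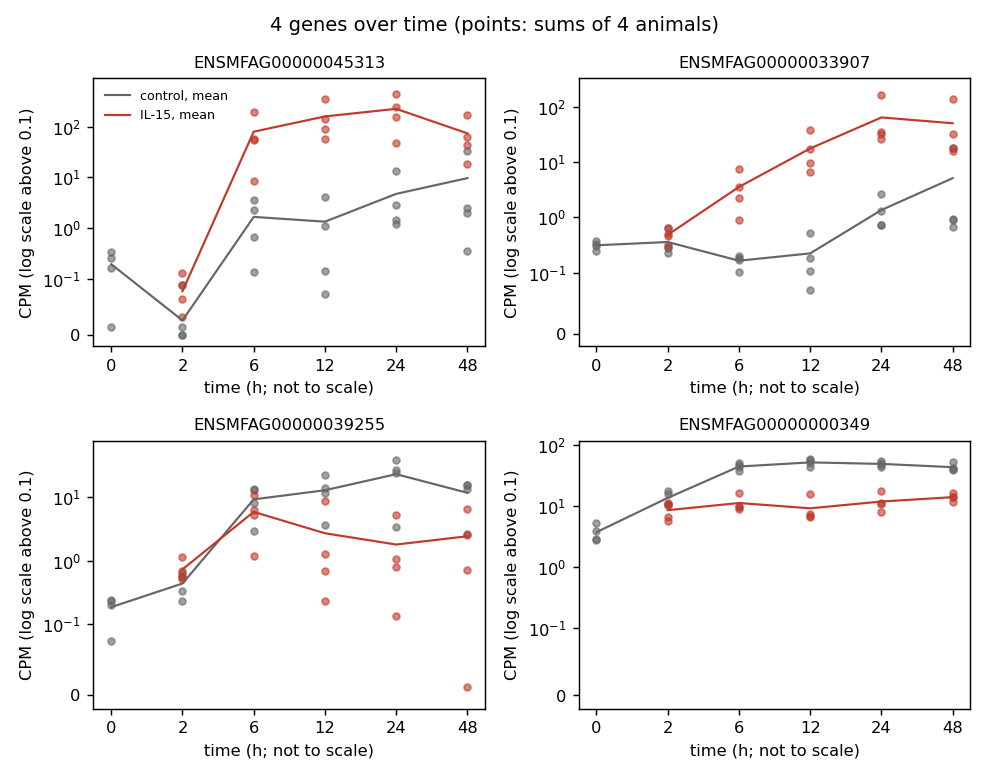
CPM (vertical axis, log scale above 0.1) of the 4 genes from 0 to 48 h in control cultures (grey) and with IL-15 (red); points are the sums of the 4 animals and lines their means. For ENSMFAG00000000349 the control points at 12 h lie between 43.9 and 58.7 CPM and those with IL-15 between 6.52 and 16 CPM.

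Females and males, 2 animals of each, were compared in their log2 fold changes at 12 h. No gene passed (0%; limma, adjusted p under 0.05), with 2118 at an unadjusted p under 0.05 and a lowest adjusted p of 0.25. As an interaction term in edgeR the same comparison called 1 gene, with 933 at an unadjusted p under 0.05. Sex cannot be told apart here from other differences between these 4 animals.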

How the data were processed

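Raw counts in whole numbers were deposited in 2 tables covering 132 libraries, with cynomolgus (38550 rows) and rhesus (35432 rows) Ensembl IDs. The RNA was purified on Qiagen RNeasy Mini columns and KAPA mRNA HyperPrep chemistry was used for the libraries, per the labels' protocols. Not given in the sources used here are aligner, counting tool, build and annotation. The counts are not normalized, and without molecular identifiers they are not independent molecules.

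The cynomolgus table was used, with the rhesus table as an alternative. The 3 libraries of each animal and group were summed, giving 44 sums in 11 groups. The test was edgeR 4.0.16 (R 4.3.3): TMM, filterByExpr on the groups (18197 genes), robust quasi-likelihood fit of all 44 sums with a term for the animal, and Benjamini-Hochberg adjustment over all genes. Single-animal values are differences of log2 CPM with a prior count of 2. Sexes were compared with limma 3.58.1 (trend, robust). DESeq2 1.42.0 was an alternative. The scripts were tested on simulated data.

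Animals pair the samples by their labels: at 12 h, deviations of an animal's IL-15 and control sums from their group means correlated with r = 0.762 to 0.902. The rule for printed IDs, the members and the comparisons were chosen with earlier results of these data known. Lists of pathway genes and cell type markers could not be run, for want of symbols.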

Additional observations from a re-analysis of the deposited data

Results flagged for a closer look

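Among 12 groups of 4 animals (control level, IL-15 level and fold change of the 4 printed genes), 2 held an animal far from the other 3. The limit used flags about 1 in 20 groups by chance if values are independent and normally distributed. The CPM of genes chosen as extremes need not meet this, so that rate may not hold here. Both flags were on CPM, and neither animal was flagged in the fold change of that gene. For ENSMFAG00000039255 with IL-15 it was animal 38147, at 8.63 CPM. For ENSMFAG00000000349 with IL-15 it was animal 38157, at 16 CPM.

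The IL-15 effect differed between times by a test of the difference (edgeR, adjusted p under 0.05) in both directions. Compared with 2 h, the log2 fold change of 12 h lay above for 1646 genes and below for 1014, and compared with 6 h above for 14 and below for 4. The value of 24 h lay above that of 12 h for 96 genes and below for 6, and the value of 48 h above for 1050 and below for 847. From 2 to 12 h the log2 fold change moved by 5.94 for ENSMFAG00000033907, -3.73 for ENSMFAG00000039255 and -1.91 for ENSMFAG00000000349. From 12 to 48 h it moved by -3.73 for ENSMFAG00000045313, -2.63 for ENSMFAG00000033907 and 0.95 for ENSMFAG00000000349.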

How the results depend on the processing

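The log2 fold changes of the 4 printed genes kept their direction in each of 21 alternatives, with ranges of 6.87 to 8.06, 5.86 to 6.62, -3.79 to -2.25 and -2.88 to -2.46 in the order of the report; only the call of ENSMFAG00000039255 was lost, with the animal term left out, and its -3.79 is the value without animal 38147. They could not be read in the rhesus table, whose IDs differ. Upper-quartile scaling, total counts alone, the token term and the fits without the deepest or the 3 outlying libraries were chosen after seeing the data. With 1 animal or 1 library number left out, 1978 to 2768 genes were higher and 1475 to 2567 lower, 362 to 652 of the latter by at least 1; the effect differed from that at 2, 6 and 48 h for 988 to 2522, 0 to 23 and 762 to 1614 genes, while the value of 24 h lay above that of 12 h for 0 to 95 genes and below it for 0 to 8 (edgeR; beside the counts of 0, 1093 and 772 at an unadjusted p under 0.05). The cause of these shifts was not tested.

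A block for each pair of sums, IL-15 and control of an animal at a time, gave 4033, 197 and 2877 genes for the differences from 2, 6 and 48 h, and 66 with 24 h below 12 h. With no replicate block, that is without the animal term, 1702 genes were higher and 720 lower (197 by at least 1), and the differences were 598, 0 (706 at an unadjusted p under 0.05, edgeR) and 510, with 24 h above 12 h for 22 and below for 0 (406 unadjusted, edgeR). Libraries entered singly gave 4501 lower and 5509, 1747 and 4413 for the differences from 2, 6 and 48 h, with 24 h above for 348 and below for 362; they count sister libraries as replicates. With the library number as a replicate block these were 4513, 5527, 1768, 4422, 349 and 363, and with the token set as a term 4583, 5682, 1713, 4251, 364 and 386. Same-numbered IL-15 and control libraries of an animal at 12 h correlated with r = -0.12 to 0.36 (median 0.163), above 0.1 in 8 of 12 pairs. The labels do not say that the numbers pair the libraries, and they were not taken to do so. The filter at a mean of 5 CPM, which tests fewer genes, left 378 genes higher and 192 lower by at least 1, and 29 for the difference from 6 h. DESeq2 called 146 for 6 h and 39 with 24 h below 12 h, and the fit of only the groups compared called 294 and 26. Without the 3 outlying libraries the count for 6 h was 41, and without the deepest library 30. Upper-quartile scaling gave 3893 genes lower, and total counts alone 1753 higher and 5096 lower, 1079 of the latter by at least 1. For the sexes, the edgeR interaction called 1 gene. Genes under 1 CPM are the least precise.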
